A study of Mus musculus with 24 samples.

Results

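Fcgrt, Cubn, Amn, Dab2 and Lrp2, which encode receptors and an adaptor for the uptake of whole proteins by the newborn intestine, were followed across mouse intestinal organoids and intestine. These 5 genes were chosen for their role in protein uptake, with earlier results of these data known. Each had 1 probe set naming it alone, among 30718 genes measured. RNA had been hybridised to 24 Affymetrix arrays of 1 colour, and 6 groups had 4 arrays each. The groups were organoids from adult intestine after 30 and 3 days of culture, organoids from fetal intestine of embryonic day 19 (E19) after 30 and 3 days, intestinal tissue of adults, and intestinal tissue of newborns on postnatal day 0 (P0). All organoids were kept in ENR, a medium named for EGF, Noggin and R-spondin, and no sample carried another treatment in the labels. Organoids are cultures of intestinal epithelium, and the stage of an organoid here is that of the tissue it came from. Strain, sex, adult age and the stretch of intestine sampled are not given in the labels, nor whether replicates were separate animals or cultures. The p-values therefore measure the spread between these arrays, which may be technical.

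Before the gut wall closes to large molecules, enterocytes of suckling rodents take up milk proteins whole. Fcgrt encodes the heavy chain of the neonatal Fc receptor, which pairs with beta-2-microglobulin (B2m), binds milk IgG in acid conditions and carries it across the cell. Cubn encodes cubilin, a large receptor without a membrane-spanning part, which needs amnionless (Amn) to reach the cell surface. Cubilin and amnionless together are called cubam, which takes up vitamin B12 with intrinsic factor in the ileum as well as other proteins. Lrp2 encodes megalin, a receptor of the LDL receptor family that works beside cubam in kidney and yolk sac. Dab2 is the clathrin adaptor that binds the tails of amnionless and megalin, and in zebrafish and suckling mice it serves, with cubam, the lysosome-rich enterocytes of the lower small intestine.

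The promoters of Fcgrt, Cubn, Amn and Dab2 are shown from RefSeq (GRCm38.p6), 5′ to 3′ on the gene's own strand. Each runs from 250 bases before to 50 bases after a start site. The promoters of Cubn and Amn are given because both proteins form 1 receptor and their levels moved by different amounts. Those of Fcgrt and Dab2 are given because both averaged highest in P0 tissue, then fetal day 3 organoids, then adult tissue. On single arrays within groups the levels of Fcgrt and Dab2 did not always move together. Capitals mark matches, read on either strand of the window, to 3 motifs that were searched in every promoter of the table. The letters CACGTG are an E-box, which several families of helix-loop-helix factors are known to bind. The letters AGATAAG are a GATA motif, named after the zinc finger factors that bind it and are known from the small intestine. The letters GTTAAT are an HNF1 half-site, named after homeodomain factors of liver, kidney and gut. No match overlapped a match to another motif.
Fcgrt, chr7:45103773-45104072, minus strand: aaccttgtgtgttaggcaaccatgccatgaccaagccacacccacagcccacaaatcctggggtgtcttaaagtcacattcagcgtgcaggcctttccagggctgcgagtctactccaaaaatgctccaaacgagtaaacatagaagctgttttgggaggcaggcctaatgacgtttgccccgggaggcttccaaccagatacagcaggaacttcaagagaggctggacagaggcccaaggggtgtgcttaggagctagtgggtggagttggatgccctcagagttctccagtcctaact
Cubn, chr2:13491827-13492126, minus strand: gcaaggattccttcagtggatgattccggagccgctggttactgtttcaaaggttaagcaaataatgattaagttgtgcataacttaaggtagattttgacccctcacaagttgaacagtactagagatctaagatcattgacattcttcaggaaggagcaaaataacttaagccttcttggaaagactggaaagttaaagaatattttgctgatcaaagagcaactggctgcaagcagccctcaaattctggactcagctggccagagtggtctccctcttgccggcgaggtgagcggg
Amn, chr12:111270846-111271145, plus strand: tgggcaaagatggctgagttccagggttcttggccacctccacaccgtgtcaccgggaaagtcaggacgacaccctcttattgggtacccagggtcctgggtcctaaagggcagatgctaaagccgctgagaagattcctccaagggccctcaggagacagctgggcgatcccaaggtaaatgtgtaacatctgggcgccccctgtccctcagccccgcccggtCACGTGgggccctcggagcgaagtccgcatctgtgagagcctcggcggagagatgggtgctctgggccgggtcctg
Dab2, start site 1, chr15:6299539-6299838, plus strand: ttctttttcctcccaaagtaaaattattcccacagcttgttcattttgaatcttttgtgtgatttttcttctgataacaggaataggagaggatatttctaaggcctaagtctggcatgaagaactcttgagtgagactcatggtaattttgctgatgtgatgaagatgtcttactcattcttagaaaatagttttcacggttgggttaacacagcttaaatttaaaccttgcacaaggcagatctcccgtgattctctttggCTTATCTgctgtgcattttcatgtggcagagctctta
Dab2, start site 2, chr15:6386498-6386797, plus strand: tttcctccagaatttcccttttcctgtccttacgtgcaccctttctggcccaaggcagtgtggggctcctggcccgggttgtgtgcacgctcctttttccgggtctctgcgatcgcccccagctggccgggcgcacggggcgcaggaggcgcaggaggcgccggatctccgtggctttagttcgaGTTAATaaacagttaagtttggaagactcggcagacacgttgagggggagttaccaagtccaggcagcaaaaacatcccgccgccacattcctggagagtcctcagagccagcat
The Amn promoter held 62.3% G or C and 15 CpG pairs, against 44.3% and 5 in that of Cubn and a median of 52.7% and 7 over 32851 promoters. The Fcgrt promoter held 53.3% and 5, and the 2 Dab2 promoters held 37.7% and 2 at start site 1 and 59.3% and 19 at start site 2. Amn had an E-box 26 bases before its start, a motif found in 7.15% of all promoters. Dab2 had the GATA motif from 13 bases after start site 1 (3.04% of all promoters) and the HNF1 half-site 65 bases before start site 2 (7.1%). None of these letters were in the windows of Cubn and Fcgrt. That of Lrp2, not printed here, held none either, with 65% G or C and 20 CpG pairs. The arrays do not part the start sites of Dab2, and these matches describe letters only.

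Levels are deposited log2 signals after robust multi-array averaging (RMA), which corrects background, makes array distributions alike and sums up the probes of a probe set. A difference is the mean log2 level of the group named first minus that of the other, ± SE, with limma's p adjusted over all genes. Genes with an adjusted p under 0.05 are named as called, lower or higher. The median of 5222 negative control probe sets, between 3.84 and 4.61 on single arrays, served as the limit of measurement. It is a lenient limit: the 95th percentile of these controls was 7.27 to 8.06, so levels above the limit can still lie within their range. Where 1 group's mean lay below the limit of its arrays the fold is given as a lower bound, and where both did none is given. Array medians lay between 4.20 and 4.45, and the 10 epithelial markers averaged 10.02 to 10.31 on the organoid arrays, 10.14 to 10.47 on adult tissue arrays and 9.60 to 9.68 on P0 arrays, with none below the limit. Xist, a transcript of female cells, was 9.81 to 11.58 on all organoid arrays and on P0 arrays 1 (10.60) and 4 (10.53), and 3.77 to 4.24 on the other P0 and all adult tissue arrays. Sex and the difference between organoids and adult tissue cannot be told apart. The comparisons share groups and are not independent of one another.

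Across the study the genes were highest in P0 tissue, and among organoids in fetal ones at day 3. All 5 genes were lower at day 30 than at day 3 in fetal organoids, where 8.76% of all genes were called lower. In adult organoids limma called none of the 5 between day 30 and day 3, none at an unadjusted p under 0.05 either, where 15 of all genes (0.0488%) were called and 2583 had an unadjusted p under 0.05. At day 3 all 5 were lower in adult than in fetal organoids (all genes: 10.1% lower), and at day 30 Cubn alone was (2.17% lower). Between adult and P0 tissue 4 of 5 were lower in adult tissue (12.2%), Cubn being the one not called. Against tissue, all 5 were lower in fetal day 3 organoids than in P0 tissue (13.8%), and 4 of 5 were lower in adult day 3 organoids than in adult tissue (13.5%).

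**Figure D1:**
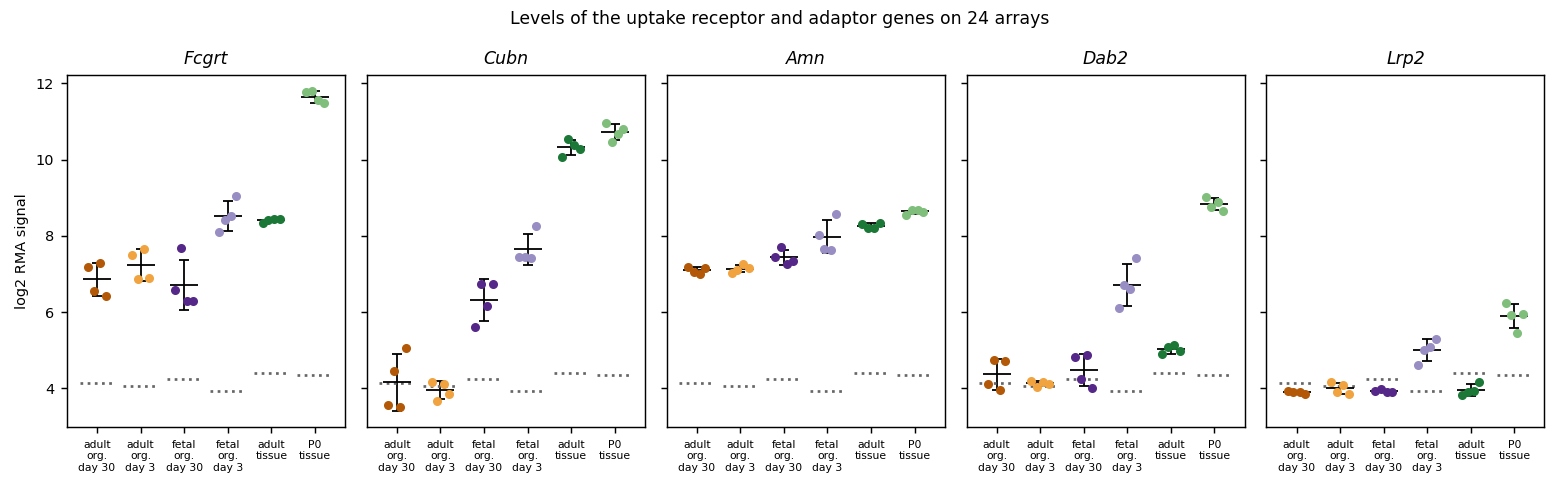
Log2 RMA signal of the 5 genes on each array (points), with group means and SD (bars, n = 4) and the mean of the negative control medians of each group (dotted). Fcgrt and Dab2 are highest in P0 tissue, Cubn is high in both tissues and at the dotted line in adult organoids, and Lrp2 lies above it in fetal day 3 organoids and P0 tissue.

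Fcgrt, the IgG receptor, was highest at birth. It measured 7.18, 6.55, 7.29 and 6.43 in adult organoids at day 30, and 7.50, 6.87, 7.67 and 6.89 at day 3. Fetal organoids gave 6.60, 7.69, 6.31 and 6.29 at day 30, against 8.11, 8.41, 8.53 and 9.05 at day 3. Adult tissue gave 8.34, 8.42, 8.43 and 8.45, against 11.78, 11.80, 11.57 and 11.48 in P0 tissue. All P0 arrays lay above all others, and all fetal day 3 arrays lay above the arrays of the other 3 organoid groups. The fall was 9.49-fold in adult against P0 tissue (-3.25 ± 0.26, adjusted p = 1.28e-09) and 3.5-fold in fetal organoids at day 30 against day 3 (-1.81 ± 0.26, adjusted p = 3.8e-05). At day 3 adult organoids lay below fetal ones (-1.29 ± 0.26, adjusted p = 0.000736), while at day 30 the groups overlapped (0.14 ± 0.26, 95% interval -0.40 to 0.68, adjusted p = 0.872). Fetal day 3 organoids (mean 8.53 ± 0.39, SD, n = 4) and adult tissue (8.41 ± 0.05) did not part beyond their spread, nor did adult day 3 (7.23 ± 0.41), adult day 30 (6.86 ± 0.43) and fetal day 30 organoids (6.72 ± 0.66). The culture change was larger in fetal than in adult organoids (-1.43 ± 0.37, adjusted p = 0.032; all genes: 1.97% lower). That call ended without fetal day 3 array 3 or 4, fetal day 30 array 1, 3 or 4, adult day 3 array 2 or 4, or adult day 30 array 1 or 3, with adjusted p between 0.0547 and 0.0857.

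B2m, its light chain, was not called lower with it between ages or days of culture. B2m was higher in adult than in P0 tissue (0.64 ± 0.11, adjusted p = 0.000145) and in adult than in fetal organoids at day 3 (0.58 ± 0.11, adjusted p = 0.000504) and day 30 (0.61 ± 0.11, adjusted p = 0.00128). In fetal organoids B2m averaged 10.21 ± 0.16 at day 30, against 10.41 ± 0.15 at day 3 (SD, n = 4), and was not called (adjusted p = 0.259). Pigr, the receptor that carries IgA out to the gut lumen, was higher in adult than in P0 tissue and at day 30 in fetal organoids, where Fcgrt was lower. Its level was 11.75 to 11.92 in adult tissue, against 8.04 to 8.67 in P0 tissue (3.54 ± 0.22, adjusted p = 1.17e-11), and 11.21 to 11.51 in fetal organoids at day 30, against 8.54 to 10.01 at day 3 (2.11 ± 0.22, adjusted p = 4.23e-07). At day 30 Pigr was not called between adult and fetal organoids (0.12 ± 0.22, adjusted p = 0.875).

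Cubn, the ligand-binding chain of cubam, was high in both tissues and at the limit of measurement in adult organoids. In adult organoids it measured 3.58, 4.46, 3.52 and 5.07 at day 30, and 4.17, 3.67, 4.12 and 3.86 at day 3, with 2 of 4 arrays above the limit each time. Fetal organoids gave 5.61, 6.75, 6.17 and 6.75 at day 30, against 7.45, 7.45, 7.43 and 8.26 at day 3. Adult tissue gave 10.07, 10.55, 10.40 and 10.29, against 10.95, 10.47, 10.66 and 10.80 in P0 tissue. Both tissues overlapped, all fetal organoid arrays lay below them and all adult organoid arrays lay lower still. Adult day 3 organoids were at least 74.4-fold below adult tissue (-6.37 ± 0.28, adjusted p = 6.28e-14). Adult day 30 organoids lay below it too (-6.17 ± 0.28, adjusted p = 8.22e-14), a difference given without a fold because 2 of 4 arrays were not above the limit. Against fetal organoids, adult ones were at least 11.6-fold lower at day 3 (-3.69 ± 0.28, adjusted p = 5.13e-09) and also lower at day 30 (-2.16 ± 0.28, adjusted p = 6.1e-05, with the same 2 adult arrays not above the limit). Fetal organoids at day 30 lay below those at day 3 (-1.33 ± 0.28, adjusted p = 0.00207) and still 16.1-fold below adult tissue (-4.01 ± 0.28, adjusted p = 1.72e-10). Between the tissues Cubn was not called (-0.40 ± 0.28, 95% interval -0.98 to 0.19, adjusted p = 0.312), but was when these 8 arrays were fitted alone (adjusted p = 0.0386). In the fit the fetal culture change exceeded the adult one (-1.53 ± 0.40, adjusted p = 0.0356). Adult Cubn was at the limit on both days, so a fall in adult organoids could not be measured. The call ended without fetal day 3 array 4, fetal day 30 array 1 or 3, adult day 3 array 2 or 4, or adult day 30 array 2 or 4 (adjusted p 0.058 to 0.0814).

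Amn, the membrane anchor of cubam, changed far less than Cubn. Its group means spanned 1.55 on the log2 scale, against 6.77 for Cubn. Adult organoids measured 7.20, 7.05, 7.003 and 7.15 at day 30, and 7.04, 7.11, 7.26 and 7.16 at day 3. Fetal organoids gave 7.45, 7.71, 7.26 and 7.35 at day 30, against 8.03, 7.67, 7.64 and 8.57 at day 3. Adult tissue gave 8.30, 8.20, 8.22 and 8.35, against 8.56, 8.69, 8.69 and 8.64 in P0 tissue. No array fell near the limit, so Amn lay above it in adult organoids on the same arrays on which Cubn was at it. These Amn levels were still below the 95th percentile of the negative controls on the adult organoid arrays (7.50 to 7.82). The largest called difference was 2.25-fold, in adult day 30 organoids against adult tissue (-1.17 ± 0.14, adjusted p = 2.71e-07), with adult day 3 organoids close to it (-1.13 ± 0.14, adjusted p = 5.44e-07). Amn was lower in adult than in fetal organoids at day 3 (-0.84 ± 0.14, adjusted p = 1e-04), and was not called at day 30 (-0.35 ± 0.14, adjusted p = 0.137) though the groups did not overlap. In fetal organoids the days overlapped through array 2 of day 30 (-0.53 ± 0.14, adjusted p = 0.00966), and the call ended with these 8 arrays fitted alone (adjusted p = 0.145). The call between adult and P0 tissue (-0.38 ± 0.14, adjusted p = 0.0441) ended without any 1 of these 8 arrays (adjusted p 0.059 to 0.0949).

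Lrp2, megalin, lay above the lenient limit in fetal day 3 organoids (4.61, 5.004, 5.10 and 5.30) and in P0 tissue (6.24, 5.92, 5.47 and 5.95). All arrays of both groups lay above their limits. All were still below the 95th percentile of the negative controls (7.27 to 7.53 on fetal day 3 arrays and 7.75 to 7.85 on P0 arrays). The other 4 groups averaged 3.91 to 4.01, below the limits of their arrays, and 2 of their 16 arrays, both of adult day 3 organoids, were above. Lrp2 was at least 2.81-fold lower in adult than in P0 tissue (adjusted p = 8.47e-11), at least 1.7-fold lower in fetal organoids at day 30 than at day 3 (adjusted p = 5.68e-06) and at least 1.87-fold lower in adult than in fetal organoids at day 3 (adjusted p = 9.04e-06). Fetal day 3 organoids lay below P0 tissue (-0.89 ± 0.13, adjusted p = 1.35e-05). Among the other 4 groups no difference could be measured.

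Dab2, the adaptor, had the largest change between the tissues of the 5 genes. Adult organoids measured 4.11, 4.73, 3.95 and 4.72 at day 30, and 4.20, 4.04, 4.18 and 4.12 at day 3. Fetal organoids gave 4.82, 4.25, 4.89 and 4.03 at day 30, against 6.10, 6.71, 6.62 and 7.43 at day 3. Adult tissue gave 4.90, 5.08, 5.15 and 4.98, against 9.03, 8.77, 8.89 and 8.66 in P0 tissue. All P0 arrays lay highest, all fetal day 3 arrays next, and the other 3 organoid groups overlapped near the limit, with 3 of 4 arrays above it in each. Apart from the P0 arrays and fetal day 3 array 4, Dab2 lay below the 95th percentile of the negative controls. Dab2 was 14.1-fold lower in adult than in P0 tissue (-3.81 ± 0.22, adjusted p = 4.78e-12) and 4.66-fold lower in fetal organoids at day 30 than at day 3 (-2.22 ± 0.22, adjusted p = 2.86e-07). Adult organoids lay 5.98-fold below fetal ones at day 3 (-2.58 ± 0.22, adjusted p = 2.44e-08). With the lower group near the limit, the folds of 4.66 and 5.98 may be too small. At day 30 the difference between adult and fetal organoids was -0.11 ± 0.22 (95% interval -0.57 to 0.34, adjusted p = 0.881). The fitted difference between the culture changes of fetal and adult organoids was -2.47 ± 0.31 (adjusted p = 5.23e-05). Adult Dab2 lay near the limit on both days, so a fall there could hardly be measured. The fitted difference for Lrp2 was -0.97 ± 0.19 (adjusted p = 0.00377), but its adult groups both lay below the limit, so its adult change was not measured. For Amn that test was not passed (-0.49 ± 0.19, adjusted p = 0.231).

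**Figure D2:**
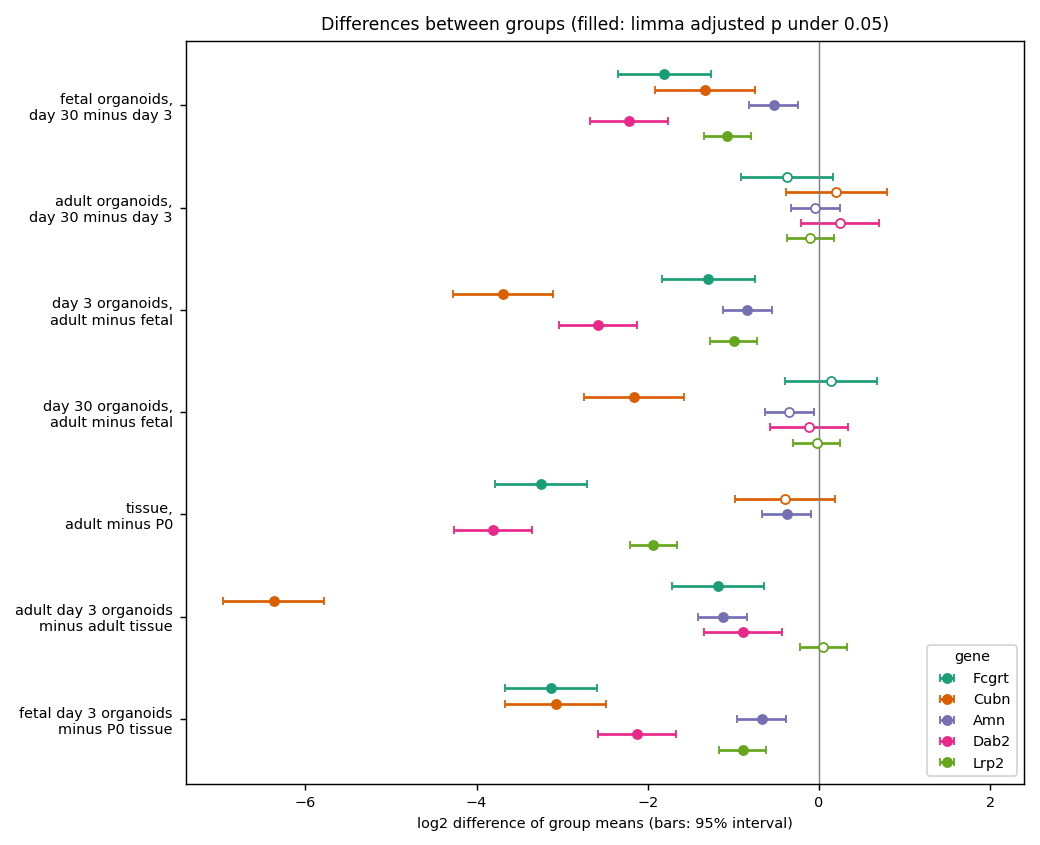
Log2 differences of group means with 95% intervals for the 5 genes in 7 comparisons; filled points passed limma's test. The Cubn difference between adult day 3 organoids and adult tissue (-6.37) lies farthest from 0, and the 5 differences between day 30 and day 3 of adult organoids are all open. Where 1 of the compared groups lay below the limit (Lrp2, and Cubn in adult day 3 organoids) the true difference may be larger, and where both did (Lrp2) none was measured.

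For Cubn and Fcgrt the effect of adult age differed in size between organoids and tissue. A test of the difference between the age effect of day 3 organoids and that of tissue was added after the values were seen. The young reference was of E19 origin for organoids and P0 for tissue. By Xist, P0 tissue was mixed in sex, while adult tissue arrays were all low and organoid arrays all high. Stage, sex and culture cannot be told apart in this difference. The age effect of Cubn was more negative in organoids (-3.69) than in tissue (-0.40), a difference of -3.30 ± 0.40 (adjusted p = 2.73e-06, all genes: 13% lower). For Fcgrt it was less negative in organoids (-1.29) than in tissue (-3.25), a difference of 1.95 ± 0.37 (adjusted p = 0.00044, all genes: 13.6% higher). The fitted value for Dab2 was 1.23 ± 0.31 (adjusted p = 0.00519). Dab2 averaged 4.13 in adult day 3 organoids, near the limit of 4.07. A larger age effect in organoids could not have been measured, so no direction is given. The fitted value for Lrp2 was 0.94 ± 0.19 (adjusted p = 0.000759), but both of its age effects are bounds, since both adult groups lay below the limit, and no direction can be given. The difference for Amn was -0.46 ± 0.19 (adjusted p = 0.0877), and it was called without fetal day 3 array 2 (adjusted p = 0.036) or 3 (adjusted p = 0.0305). In the same test 7 of 8 endothelial markers were higher (list median 1.15) and 0 lower, while 6 of 9 macrophage markers and 6 of 10 epithelial markers were lower (list medians -0.84 and -0.75, against -0.08 for all genes), and their part was not tested.

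Against tissue, fetal day 3 organoids lay below P0 tissue in Fcgrt by 8.76-fold (-3.13 ± 0.26, adjusted p = 3.41e-09), Cubn by 8.44-fold (-3.08 ± 0.28, adjusted p = 1.73e-08) and Dab2 by 4.36-fold (-2.13 ± 0.22, adjusted p = 9.94e-08). Amn was 1.59-fold lower (-0.67 ± 0.14, adjusted p = 0.000491), and its groups overlapped through fetal day 3 array 4. In adult day 3 organoids Fcgrt (-1.18 ± 0.26, adjusted p = 0.000841) and Dab2 (-0.89 ± 0.22, adjusted p = 0.00229) were below adult tissue. At day 30 adult organoids also lay below adult tissue in Fcgrt (-1.55 ± 0.26, adjusted p = 3.5e-05, all genes: 15.2% lower) and Dab2 (-0.65 ± 0.22, adjusted p = 0.0221). That call of Dab2 ended without adult day 30 array 1 or 3 or adult tissue array 3 (adjusted p 0.0564 to 0.093). Fetal day 30 organoids were below adult tissue in Fcgrt (-1.69 ± 0.26, adjusted p = 1.47e-05, all genes: 14.6% lower) and Amn (-0.82 ± 0.14, adjusted p = 4.29e-05). Dab2 was not called there (-0.53 ± 0.22, adjusted p = 0.0675), but was without fetal day 30 array 1 (adjusted p = 0.0403) or 3 (adjusted p = 0.0308).

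The counts of lists stand against shares over all genes. Genes called higher made up 15% of all genes in adult against P0 tissue, 14.5% in adult against fetal organoids at day 3, and 6.77% in fetal organoids at day 30 against day 3. They made up 21.9% in adult day 3 organoids against adult tissue and 30.5% in fetal day 3 organoids against P0 tissue, and the shares called lower are those given with the 5 genes. Of 14 genes whose products work with these receptors, 3 were higher and 4 lower in adult than in P0 tissue (all genes: 15% and 12.2%), with a list median of 0.02 against 0.08 for all genes. Mamdc4, which encodes endotubin of the apical endosomes of suckling enterocytes, had a larger difference than any of the 5 genes. It was 5.75 to 6.10 in adult tissue, against 11.12 to 11.22 in P0 tissue (-5.30 ± 0.19, adjusted p = 1.28e-15). In fetal organoids it was 6.25 to 7.44 at day 30, against 9.41 to 10.30 at day 3 (-2.73 ± 0.19, adjusted p = 3.02e-09). At day 30, where Fcgrt and Dab2 were not called, Mamdc4 was lower in adult (5.69 to 5.91) than in fetal organoids (-1.15 ± 0.19, adjusted p = 0.000541). Clcn5, a chloride and proton exchanger of endosomes, was lower in adult tissue (-1.51 ± 0.13, adjusted p = 6.72e-09), in adult organoids at day 3 (-1.27 ± 0.13, adjusted p = 4.77e-07) and in fetal organoids at day 30 against day 3 (-1.22 ± 0.13, adjusted p = 1.22e-06). Ocrl, an endosomal lipid phosphatase, was lower in adult tissue (-1.30 ± 0.14, adjusted p = 2.07e-07). Going against these, Slc9a3r1 (0.49 ± 0.13, adjusted p = 0.00576) and Gipc2 (0.28 ± 0.08, adjusted p = 0.017), which encode PDZ scaffold proteins, were higher with B2m. Lrpap1, the chaperone of megalin, was not called in tissue (-0.23 ± 0.22, adjusted p = 0.461), nor in fetal organoids between days (-0.27 ± 0.22, adjusted p = 0.451).

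At day 3 the partner list had 2 genes higher and 3 lower in adult than in fetal organoids (all genes: 14.5% and 10.1%). In fetal organoids 1 was higher and 3 lower at day 30 against day 3 (all genes: 6.77% and 8.76%). Both counts of genes higher lay near the shares of all genes. The gene higher at day 30 was Cd320, the receptor for transcobalamin-bound vitamin B12 (0.43 ± 0.11, adjusted p = 0.00659), and it was also higher in adult than in fetal organoids at day 3 (0.51 ± 0.11, adjusted p = 0.000909). Adult day 3 organoids against adult tissue had 3 higher, near the share of all genes, and 5 lower (all genes: 21.9% and 13.5%), led by Pdzk1, a brush border scaffold (-3.38 ± 0.28, adjusted p = 1.42e-09), Slc9a3r1 (-1.27 ± 0.13, adjusted p = 2.67e-08) and Tcn2, the B12 carrier transcobalamin (-1.20 ± 0.13, adjusted p = 1.09e-07). Fetal day 3 organoids against P0 tissue had 4 higher, near the share of all genes, and 8 lower (all genes: 30.5% and 13.8%). Among those lower were Pdzk1 (-2.31 ± 0.28, adjusted p = 8.67e-07) and Tcn2 (-1.33 ± 0.13, adjusted p = 5.1e-08). B2m was below tissue in adult (-1.10 ± 0.11, adjusted p = 4.24e-08) and fetal (-1.05 ± 0.11, adjusted p = 1.79e-07) day 3 organoids.

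**Figure D3:**
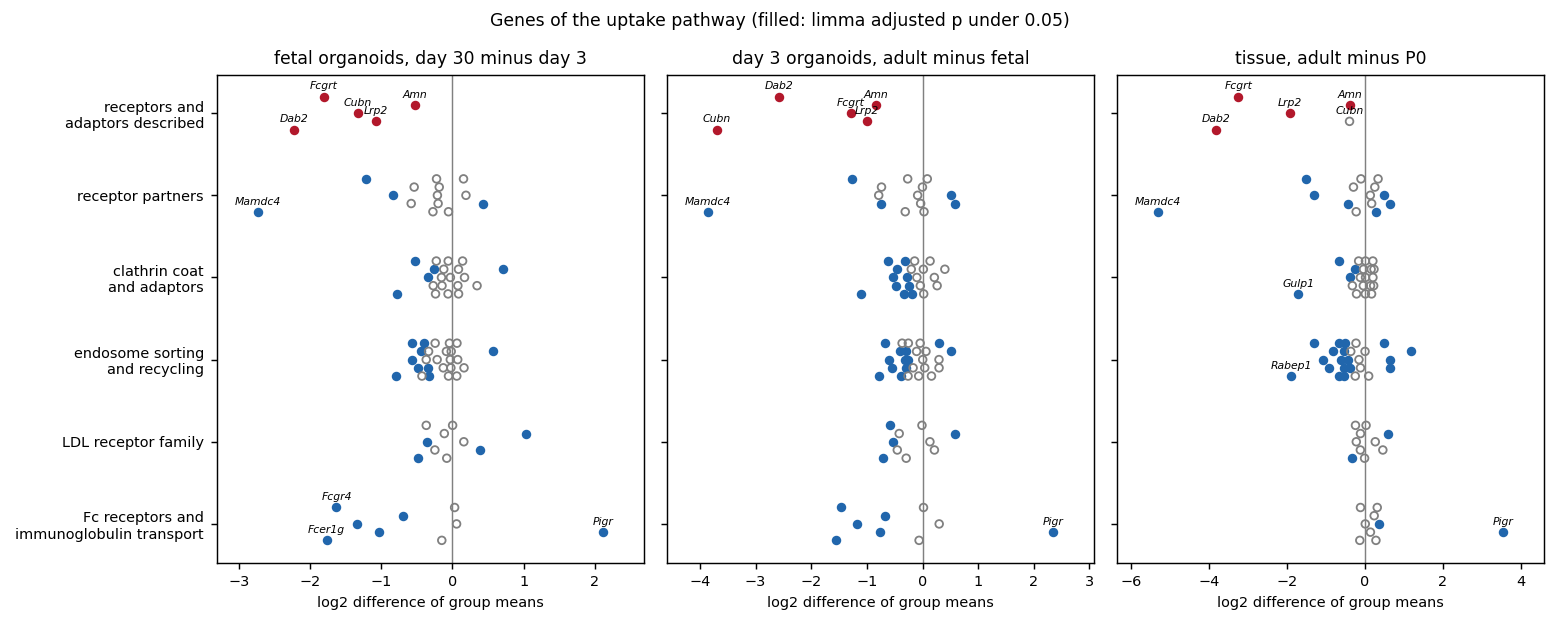
Log2 differences of all measured genes of the pathway lists in 3 comparisons, 1 point a gene; filled points passed limma's test, and the 5 genes described are red. Mamdc4 lies left of the receptors and Pigr lies far right in all 3 panels.

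Genes of the clathrin coat and of endosome sorting act after the receptors have bound their cargo. Of 20 clathrin coat and adaptor genes, 0 were higher and 10 lower in adult than in fetal organoids at day 3 (at an unadjusted p under 0.05, 0 higher), with a median of -0.20 against -0.01 for all genes. Gulp1, an engulfment adaptor, was lowest but fell below the limit in adult organoids (adjusted p = 1.4e-05), followed by Cltb, a clathrin light chain (-0.62 ± 0.12, adjusted p = 0.000401), and Dnm2, the dynamin that pinches vesicles off (-0.53 ± 0.11, adjusted p = 0.000939). Without fetal day 3 arrays 2 and 3 the count lower was 4. In tissue 0 of 20 were higher (4 at an unadjusted p under 0.05) and 4 lower in adults, led by Gulp1 (-1.72 ± 0.15, adjusted p = 7.72e-09) and Epn2 (-0.66 ± 0.12, adjusted p = 0.000184). In fetal organoids 1 was higher at day 30, Dab1, a relative of Dab2 known from neurons (0.71 ± 0.22, adjusted p = 0.0265), and 4 were lower. Adult day 3 organoids had 1 higher and 13 lower than adult tissue, led by Dab1 (-1.37 ± 0.22, adjusted p = 1.8e-05). Picalm had no probe set naming it alone and was not analysed here.

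Of 25 endosome sorting and recycling genes, 14 were lower and 4 higher in adult than in P0 tissue (all genes: 12.2% and 15%). The count higher lay near the share, and the list median was -0.45 against 0.08 for all genes. The lowest were Rabep1, an effector of Rab5 on early endosomes (-1.90 ± 0.14, adjusted p = 4.63e-10), Snx2, a sorting nexin (-1.30 ± 0.11, adjusted p = 1.6e-09), and Rab11a of recycling endosomes (-1.07 ± 0.12, adjusted p = 2.16e-07). Higher in adults were Sorl1, a sorting receptor (1.17 ± 0.15, adjusted p = 1.9e-06), and 3 genes of apical recycling, Rab25 (0.65 ± 0.12, adjusted p = 0.000223), Rab11fip1 (0.63 ± 0.08, adjusted p = 1.34e-06) and Myo5b (0.49 ± 0.11, adjusted p = 0.0014). In fetal organoids 8 were lower and 1 higher at day 30, led by Rab11a (-0.79 ± 0.12, adjusted p = 5.22e-05) and Ehd1 (-0.57 ± 0.09, adjusted p = 8.14e-05), with Sorl1 again higher (0.57 ± 0.15, adjusted p = 0.00998). At day 3, 10 were lower and 2 higher in adult organoids, and adult day 3 organoids had 7 higher and 6 lower than adult tissue, or 6 higher and 9 lower after a second quantile normalization. The count of 10 was 5 without fetal day 3 arrays 2 and 3, and 6 without the 5 arrays high in Fabp6 described further on.

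Relatives of megalin were called in both directions, with several counts near the shares of all genes. Of 10 other genes of the LDL receptor family 1 was higher and 1 lower in adult than in P0 tissue (all genes: 15% and 12.2%). These were Lrp12 (0.59 ± 0.10, adjusted p = 0.000119) and Lrp11 (-0.34 ± 0.12, adjusted p = 0.0437). In fetal organoids 2 were higher at day 30, Lrp4 (1.03 ± 0.17, adjusted p = 0.00016) and Lrp6 (0.39 ± 0.12, adjusted p = 0.0326), and 2 lower. At day 3, 1 was higher and 3 lower in adult than in fetal organoids (all genes: 14.5% and 10.1%). Fetal day 3 organoids had 3 higher and 3 lower than P0 tissue (all genes: 30.5% and 13.8%). Of 9 Fc receptor and immunoglobulin transport genes, 5 were lower at day 30 in fetal organoids, all genes of Fc receptors of blood cells, and 1, Pigr, higher. Fcer1g, their common signalling chain (-1.77 ± 0.16, adjusted p = 7.07e-08), and Fcgr3 (-1.34 ± 0.16, adjusted p = 2.74e-06) were the lowest with both groups above the limit. Adult tissue had 2 of 9 higher than P0 tissue, Pigr and the cytosolic antibody receptor Trim21 (0.37 ± 0.08, adjusted p = 0.000699), and 0 lower (0 at an unadjusted p under 0.05).

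Other cell types moved with several of these results. Dab2 and Fcgrt are also known from macrophages, and Dab2 from mesenchyme and endothelium. In bulk RNA fewer cells of a type and less RNA per cell cannot be told apart. Of 9 macrophage markers 8 were lower in fetal organoids at day 30 than at day 3, and the list averaged 4.75 to 4.92 at day 30, against 5.49 to 6.02 at day 3. Fcgr1, Adgre1 and Cd163 lay below the limit at day 30. Of 10 mesenchyme and smooth muscle markers 9 were lower at day 30 (list means 4.97 to 5.26, against 5.83 to 6.62), and of 8 endothelial markers 5 were lower (4.25 to 4.38, against 4.65 to 4.92). Their part in the fall of Dab2 and Fcgrt was not tested. At day 3, where all 5 genes were lower in adult than in fetal organoids, 8 of 9 macrophage markers (list means 4.84 to 4.95 in adult organoids, against 5.49 to 6.02 in fetal ones), 8 of 10 mesenchyme markers (5.04 to 5.98, against 5.83 to 6.62) and 5 of 8 endothelial markers (4.37 to 4.51, against 4.65 to 4.92) were lower too, and their part was not tested. Adgre1, Cd163, Lum, Kdr, Tek and Emcn lay below the limit in adult day 3 organoids, and Emcn in fetal ones. At day 30, where Cubn alone was lower in adult organoids, limma called none of these macrophage, mesenchyme or endothelial markers lower (1, a macrophage marker, at an unadjusted p under 0.05). Between adult and P0 tissue, all 8 endothelial markers (5.43 to 5.73 in adults, against 6.77 to 7.22 at P0) and 9 of 10 mesenchyme markers (6.93 to 7.50, against 8.27 to 8.90) were lower in adults, and 7 of 10 epithelial markers were higher. Macrophage markers overlapped between the tissues (5.42 to 6.08 in adults, against 5.75 to 5.90 at P0), with 1 of 9 higher and 2 lower. In adult day 3 organoids against adult tissue, where Cubn had its largest difference, 8 of 8 endothelial, 10 of 10 mesenchyme and 7 of 9 macrophage markers were lower, and their part was not tested. In fetal day 3 organoids against P0 tissue, where all 5 genes were lower, all 8 endothelial markers (4.65 to 4.92 in organoids, against 6.77 to 7.22 at P0) and all 10 mesenchyme markers (5.83 to 6.62, against 8.27 to 8.90) were lower as well, with 2 of 9 macrophage markers higher and 2 lower, and their part was not tested.

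Markers of intestinal region differed between groups too. At day 3, adult organoids had 0 of 4 ileal markers higher and 2 lower than fetal ones (all genes: 14.5% and 10.1%). Of 4 upper small intestine markers 0 were higher and 1 lower, and of 3 colon markers 1 and 1. Between fetal days these lists had 0, 0 and 1 higher and 1, 1 and 2 lower at day 30 (all genes: 6.77% and 8.76%). Their part in the results of the 5 genes was not tested. Replicates of 3 groups were uneven in such markers. Fabp6, the bile acid binding protein of the ileum, was above 8 on adult day 3 arrays 1 (10.30) and 3 (9.02), fetal day 30 arrays 2 (8.98) and 4 (9.54) and adult tissue array 1 (9.62), and between 4.55 and 6.40 on the other arrays of these groups. Adult tissue array 1 also had the ileal bile acid transporter Slc10a2 at 7.18, against 3.34 to 3.42 on the other 3. In fetal day 30 organoids Cubn was 6.75 on both Fabp6-high arrays and 5.61 and 6.17 on the others, while Dab2 was 4.25 and 4.03 on the Fabp6-high arrays and 4.82 and 4.89 on the others. In adult day 3 organoids Fcgrt was 7.50 and 7.67 on the Fabp6-high arrays and 6.87 and 6.89 on the others. In fetal day 30 organoids Fcgrt was not split this way, at 7.69 and 6.29 on the Fabp6-high arrays and 6.60 and 6.31 on the others. In adult tissue Cubn was 10.07 on the Fabp6-high array and 10.29 to 10.55 on the others. These are 2 arrays a side or fewer, and no test was made. Without the 5 arrays, an alternative chosen after seeing the data, the difference of Cubn at day 30 between adult and fetal organoids was -1.73 (adjusted p = 0.00406) and that of Dab2 between fetal days -1.86 (adjusted p = 0.000147). The difference of culture changes of Fcgrt was then -2.05 (adjusted p = 0.0017).

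**Figure D4:**
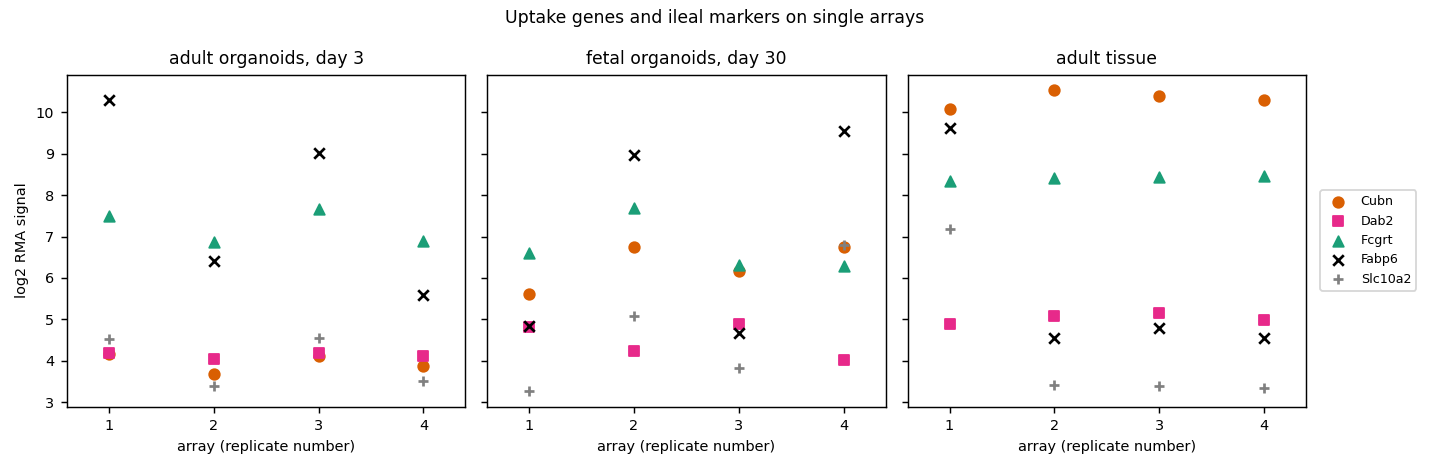
Log2 RMA signal of Cubn, Dab2 and Fcgrt beside the ileal markers Fabp6 and Slc10a2 on single arrays of 3 groups. Fabp6 lies at 8.98 to 10.30 on arrays 1 and 3 of adult day 3 organoids, 2 and 4 of fetal day 30 organoids and 1 of adult tissue, and lower on the others.

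Adult day 30 organoids were uneven as well, without Fabp6. Cubn was 4.46 and 5.07 and Dab2 4.73 and 4.72 on arrays 2 and 4, against 3.58 and 3.52 for Cubn and 4.11 and 3.95 for Dab2 on arrays 1 and 3. Fcgrt lay the other way, at 6.55 and 6.43 on arrays 2 and 4 and 7.18 and 7.29 on arrays 1 and 3. Cybrd1, an iron reductase of the upper small intestine, was 6.36 and 6.29 on arrays 2 and 4, against 8.03 and 8.90 on arrays 1 and 3. Fetal day 3 array 4 was highest of its group for all 5 genes, and for Cubn it stood at 8.26 against 7.43 to 7.45.

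Likeness between genes was measured as the root mean square of the difference of log2 levels over the 24 arrays, after centring each gene on its mean. Gpx3, the secreted glutathione peroxidase, was the gene most like both Fcgrt (0.42) and Dab2 (0.40). Fcgrt was next most like Pip4k2a (0.53), Ednrb (0.56) and Rab30 (0.56), and Dab2 was next most like Renbp (0.46), the lysosomal protease gene Lgmn (0.52) and the endolysosomal channel gene Mcoln3 (0.54). Amn was most like Ap2a2 (0.21), a subunit of the clathrin adaptor AP2, then Myo7a (0.21), Glmp (0.23) and Plin3 (0.23). Lrp2 was most like Rab3il1 (0.23), Dpp7 (0.25), Dpysl3 (0.26) and Fbn2 (0.27). No gene came as near to Cubn, whose nearest were Sparcl1 (1.13), Acta2 (1.16), Enpp3 (1.18) and the lactase gene Lct (1.19). Among the 5 genes themselves, Amn and Lrp2 were nearest (0.55) and Cubn and Lrp2 farthest apart (2.33). Fcgrt and Dab2 differed by 0.70, and Cubn and Amn by 2.14. These values share arrays, groups and scale and describe likeness only; genes with small changes have small distances to one another.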

How the data were processed

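RNA was taken up in Trizol and 1 µg was biotin-labelled, per the labels' protocols. The deposited values are log2 signals, made by the authors with Affymetrix Expression Console and RMA per the submitters' processing notes. Neither the versions nor the build are named there, and it is not stated whether all arrays entered RMA together. RMA fits distributions of arrays to one another, which can shrink differences that affect most genes.

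Of 72688 probe sets, 6732 were controls. Of 65956 transcript clusters, 31280 named 1 gene in the platform annotation, with symbols updated through RefSeq, and 1470 naming several were left out. The cluster with the highest mean stood for a gene where there were several (445 genes). All 24 arrays were fitted with limma 3.58.1 (R 4.3.3) as 6 group means, with 18 residual and 4.25 prior degrees of freedom, a two-sided moderated test and Benjamini-Hochberg adjustment over 30718 genes in each of 11 comparisons, 1 of them added after the values were seen. The script was tested on simulated data. Intervals are 95% limits from the same fit, and the number of arrays limits their precision. Python 3.11.15 with numpy 2.4.6, pandas 2.3.3 and matplotlib 3.10.9 did annotation and figures.

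The 5 genes, the lists of pathway genes and markers, and the tests were chosen with earlier results of these data known. Named besides the 5 genes are, for each list and comparison, up to 3 called genes with the largest differences and called genes against the majority, with B2m, Lrpap1 and Pigr in any case, and per gene the 4 most alike among named genes above the median level. The text prints part of these. Xist, Slc10a2, Fabp6 and Cybrd1 as single markers were chosen after their values were seen.

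Alternatives were averaging a gene's clusters, dropping dim genes (16977 remained, above their array's median on 4 or more arrays), median centring, quantile normalizing again, blocking on replicate number, fitting the compared groups alone, each array left out, pairs of arrays that stood apart left out, and, added after the data were seen, the 5 arrays with Fabp6 above 8 left out. No arrays held identical values.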

Additional observations from a re-analysis of the deposited data

Results flagged for a closer look

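In fetal day 3 organoids 1 array stood apart from the other 3 in Cubn, at 8.26 against 7.43 to 7.45. This was 1 of 30 sets of 4 arrays looked at, and chance gives about 1 in 20 such sets. The cause was not tested.

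The culture change from day 3 differed between fetal and adult organoids by limma's test of the difference, for Fcgrt (-1.43) and, in the fit, Cubn (-1.53), Dab2 (-2.47) and Lrp2 (-0.97). Adult Cubn and Dab2 lay at or near the limit on both days, so a fall in adult organoids could hardly be measured. The calls of Fcgrt and Cubn ended when some single arrays were left out, as described for each gene, and Lrp2 was below the limit of measurement in both adult groups, so its adult change was not measured. The macrophage markers averaged 4.75 to 4.92 in fetal day 30 organoids, against 5.49 to 6.02 in fetal day 3 organoids, and their part in these differences was not tested.

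The effect of adult age differed between day 3 organoids and tissue for Fcgrt (1.95), which was less negative in organoids, and for Cubn (-3.30), which was more negative. The fitted value for Dab2 (1.23) is given no direction, since Dab2 lay near the limit in adult day 3 organoids. The fitted value for Lrp2 (0.94) has no known direction, since both of its age effects are bounds. This comparison was added after the values were seen. Its young references differ, E19 origin for organoids and P0 for tissue, and Xist was mixed in P0 tissue alone. Stage, sex and culture cannot be told apart in it. The age effect of Cubn in organoids is a bound as well.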

How the results depend on the processing

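Under alternatives other than 1 left-out array, 412 differences of the 5 genes kept their direction and side of the threshold, 12 lost a call, 5 gained one and 6 changed sign. The calls of Fcgrt, Dab2, Cubn and Lrp2 in fetal culture and at day 3, of Cubn at day 30, and of Fcgrt, Dab2 and Lrp2 in tissue held under every alternative run. Fitted with the compared groups alone, Amn in fetal culture (-0.53, adjusted p = 0.145) and the differences of culture changes of Fcgrt (-1.43, adjusted p = 0.113) and Cubn (-1.53, adjusted p = 0.111) lost their calls, while Cubn in tissue (-0.40, adjusted p = 0.0386) and Dab2 in fetal day 30 organoids against adult tissue (-0.53, adjusted p = 0.0489) gained one. With dim genes left out that of Dab2 was called too (-0.53, adjusted p = 0.0463). With centred arrays the differences of culture changes of Fcgrt (-1.37, adjusted p = 0.058) and Cubn (-1.47, adjusted p = 0.0603) and Dab2 in adult day 30 organoids against adult tissue (-0.59, adjusted p = 0.0503) lost their calls. Without fetal day 3 arrays 2 and 3, the differences of culture changes were -1.49 for Fcgrt (adjusted p = 0.0879), -1.74 for Cubn (adjusted p = 0.0557) and -0.81 for Amn (adjusted p = 0.00821, now called), and the age effect of Amn in organoids minus tissue was -0.78 (adjusted p = 0.00171, now called). Amn in tissue was not called without P0 arrays 1 and 4 (-0.42), without P0 arrays 2 and 3 (-0.33) or without the 5 arrays high in Fabp6 (-0.39). The cause was not tested.

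Lrp2 below the limit in both groups changed sign in adult culture (0.0199) and adult day 3 organoids against adult tissue (-0.12) without the Fabp6-high arrays, in fetal day 30 organoids against adult tissue with centring (0.0522) and quantile normalization (0.0633), and in adult day 30 organoids against adult tissue with both (0.0044 and 0.0227).

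With 1 array left out at a time, where a call or sign changed, the differences of culture changes ran from -1.76 to -1.26 for Fcgrt and from -1.75 to -1.23 for Cubn. Cubn in adult culture ran from -0.10 to 0.42, and at day 30 Fcgrt ran from -0.0012 to 0.47 and Dab2 from -0.27 to 0.0269. Amn in tissue ran from -0.41 to -0.36, and its age effect in organoids minus tissue from -0.57 to -0.26. Dab2 against adult tissue ran from -0.67 to -0.38 in fetal and from -0.77 to -0.51 in adult day 30 organoids. Lrp2 against adult tissue ran from -0.0065 to 0.12 in adult day 3, from -0.0715 to 0.0419 in fetal day 30 and from -0.0958 to 0.0176 in adult day 30 organoids.

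Replicate numbers did not pair the arrays (correlations of deviations between -0.31 and 0.30). With the replicate number as a block, the difference of culture changes of Fcgrt was -1.43 (adjusted p = 0.0505), and no other call of the 5 genes changed.

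Genes called in fetal culture numbered 4771, against 2505 with the groups alone and 3079 without fetal day 3 arrays 2 and 3. In adult culture 15 were called, against 6 centred, 3 with quantile normalization, 3 with the block, 1 with the groups alone, 2 without the Fabp6-high arrays and 3 to 204 with 1 array left out, 204 without adult day 30 array 3. The test between culture changes called 919, against 565 without fetal day 3 arrays 2 and 3. For age at day 30 it was 2756, against 1615 with the groups alone and 1812 without adult day 30 array 1. Without P0 arrays 2 and 3 it was 5010 against 8339 in tissue and 8918 against 13604 in fetal day 3 organoids against P0 tissue.

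The share of calls that were higher moved by over 10 points with centring in fetal culture (43.6% to 65.5%), adult culture (53.3% to 33.3%), the difference of culture changes (34.1% to 45%), tissue (55.2% to 40.1%), fetal day 3 organoids against P0 tissue (68.9% to 54.3%), fetal day 30 organoids against adult tissue (56.6% to 67.5%) and the age effect in organoids minus tissue (51.2% to 68%). With quantile normalization it moved in adult culture (to 0%), in tissue (to 43.1%), at day 30 (75.8% to 52.3%) and in fetal day 3 organoids against P0 tissue (to 53.3%). The median of all genes moved by over 0.1 with centring only in the age effect in organoids minus tissue (-0.08 to 0.04). Signal over background limits Lrp2 in 4 groups, Cubn and Dab2 in adult organoids, and Dab2 in fetal day 30 organoids.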
